A study of Mus musculus with 4 samples.

Results

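A minority of rod photoreceptors carried transcripts of the interferon response, and nearly all of them lay in the vehicle libraries. Rods were cells in which the summed levels of Rp1, Nr2e3, Pde6a and Cnga1 reached 30 per 10000 unique molecular identifiers (UMIs, each counting 1 captured RNA molecule), with fewer than 3 of 6 cone genes and fewer than 3 of 5 Müller glia genes detected. Interferon rods were the rods with UMIs of at least 3 of 10 interferon-induced genes, namely Irf7, Bst2, Gbp7, Irgm1, Oasl2, Ddx58, Parp9, Rtp4, Igtp and Stat2. There were 309 of them among 9547 rods and 26543 cells. The measured values of these 10 genes chose the cells, so their levels below are a description.

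Single-cell RNA-seq was run on retinae of Abca4-/-Rdh8-/- mice, C57BL/6J, aged 6 weeks, in which the retinal transporter Abca4 and the retinol dehydrogenase Rdh8 of photoreceptors are missing and bright light injures the photoreceptors. Before light, mice received rolipram (2 mg/kg), which inhibits phosphodiesterase 4, BC11-38 (2 mg/kg), which inhibits phosphodiesterase 11, or the DMSO vehicle, each 30 min ahead of 30 min of white light at 10000 lux, and retinae were taken 1 day later. A last group received DMSO and no bleaching light. All groups carried both deletions, and every library was a pool of 4 retinae from 2 mice, with 1 library per group, so no difference between groups below has a replicate or a test. The bleached mice were also dark-adapted for 24 h and given tropicamide to dilate the pupils, steps that the labels do not record for the unbleached mice, and bleaching cannot be told apart from them. Abca4 UMIs stood at 71.1, 82.6, 49.9 and 50.1 counts per 1000000 UMIs (CPM) in rods of the rolipram, BC11-38, bleached vehicle and unbleached vehicle libraries, and Rdh8 UMIs at 1.59, 2.48, 3.22 and 4.55 CPM. Where the deleted stretches lie relative to the counted 3′ ends is not given in the sources used here, so these tags do not check the genotype.

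Interferons are secreted alarm proteins. Type I interferons bind a receptor of Ifnar1 and Ifnar2, and type II interferon binds Ifngr1 and Ifngr2; Janus kinases on these receptors then phosphorylate STAT factors, which enter the nucleus, Stat2 as part of a complex with Irf9, and switch on genes for RNA sensors, antiviral effectors, GTPases, immunoproteasome subunits and MHC class I presentation. Neurons, photoreceptors among them, are known for low resting levels of MHC class I.

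Many promoters of these genes hold short sequences that the selection did not use. Promoter windows from 250 bases before to 50 after the start were taken from RefSeq for GRCm38.p6 and searched on both strands for GAAA followed after any 2 bases by GAAA, the core of the interferon-stimulated response element to which the complex of Stat2 and Irf9 binds, and for TTCNNNGAA, the STAT site. The first motif lay in the windows of 6 of the 8 selecting genes that had a window, or 75%, against 518 of 14129 genes with a window in the whole data set, or 3.67%. It lay in 40 of 107 interferon genes outside the selection, or 37.4%, and in 0 of 15 rod phototransduction genes. Irf7 and Oasl2 had a window without a match. The STAT motif lay in 3 of 8 selecting genes, in 18 of 107 other interferon genes, or 16.8%, and in 1195 of all 14129 genes, or 8.46%. Stretches of 60 bases before the start are shown for 4 selecting genes and for Ifit1, Ifit3, Irf1 and B2m, whose transcripts are described below, 5′ to 3′ on the gene's strand, with motif matches in capitals (Irf1 shows the STAT motif, the others the first motif or its complement). Matches are given in bases from the annotated start, and overlapping matches share 1 run of capitals.
Bst2, chr8:71537562-71537621, minus strand, match at -124 to -115: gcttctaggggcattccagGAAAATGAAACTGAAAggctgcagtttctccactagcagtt
Gbp7, chr3:142530258-142530317, plus strand, match at -53 to -44: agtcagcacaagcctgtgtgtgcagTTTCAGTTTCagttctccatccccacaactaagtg
Igtp, chr11:58199496-58199555, plus strand, match at -34 to -25: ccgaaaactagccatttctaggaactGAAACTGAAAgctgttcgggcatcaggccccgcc
Stat2, chr10:128270251-128270310, plus strand, match at -222 to -213: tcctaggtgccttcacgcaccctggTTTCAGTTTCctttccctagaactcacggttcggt
Ifit1, chr19:34640779-34640838, plus strand, match at -85 to -76: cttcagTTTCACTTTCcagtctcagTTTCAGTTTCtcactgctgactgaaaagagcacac
Ifit3, chr19:34583382-34583441, plus strand, match at -122 to -113: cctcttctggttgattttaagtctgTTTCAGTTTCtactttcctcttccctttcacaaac
Irf1, chr11:53769898-53769957, plus strand, match at -90 to -82: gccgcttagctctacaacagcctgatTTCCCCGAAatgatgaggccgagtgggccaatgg
B2m, chr2:122147523-122147582, plus strand, match at -139 to -130: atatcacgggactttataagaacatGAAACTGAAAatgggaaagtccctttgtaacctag

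Interferon rods were 1 of 2606 rods in the rolipram library, 1 of 2274 in the BC11-38 library, 247 of 2355 in the bleached vehicle library and 60 of 2312 in the unbleached vehicle library. These are 0.0384%, 0.0440%, 10.5% and 2.60% of rods, with exact Clopper-Pearson 95% intervals of 9.28% to 11.8% for bleached vehicle and 1.99% to 3.33% for unbleached vehicle; intervals here cover counting error only. The share was higher in the bleached than in the unbleached vehicle library, and both drug libraries held almost none. The pools also differed in sex-linked transcripts, as described below, and without rods with Xist UMIs the vehicle shares were 10.5% and 4.45%. Detecting 3 genes is easier in a deep cell, and rods had median depths of 1224.5, 1414.5, 1388 and 1520.5 UMIs in the same order of libraries. With every rod thinned to 2000 UMIs, and shallower rods left out, interferon rods were 0 of 433 rods, 0 of 563, 76 of 464 and 33 of 714. The first pair allow shares of up to 0.693% and 0.533%, and the vehicle shares were 16.4% (13.1% to 20.1%) after bleaching and 4.62% (3.2% to 6.43%) without it. At equal depth the vehicle libraries thus kept their order, with both above the drug libraries.

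**Figure D1:**
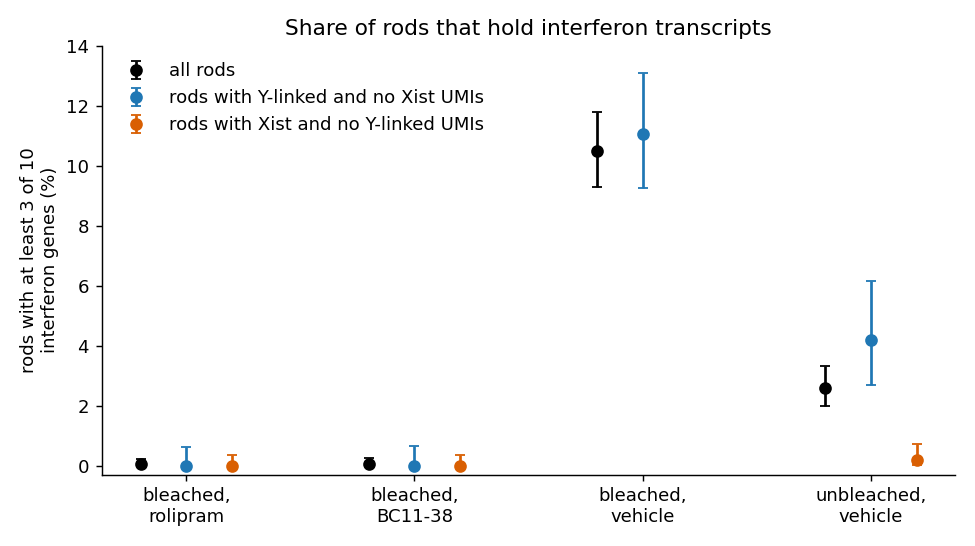
Share of rods that were interferon rods in each library, in percent of rods, for all rods, for rods with Y-linked but no Xist UMIs and for rods with Xist but no Y-linked UMIs; bars are exact 95% counting intervals and each library is 1 pool of 2 mice. All rods stand at 10.5% in the bleached vehicle library and 2.60% in the unbleached, and both drug libraries lie near 0; the bleached vehicle library had too few rods with Xist to draw.

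The number of selecting genes per rod fell off without a gap. In the bleached vehicle library 1506 rods held none of the 10 genes, 455 held 1, 147 held 2 and 75 held 3, and 1 rod held all 10. In the unbleached vehicle library 1896 held none, 290 held 1, 66 held 2 and 21 held 3, and again 1 rod held all 10. The boundary at 3 genes is a chosen line on that tail: just outside it, rods with 2 genes summed to 1600 and 1230 CPM of the selecting genes in the bleached and unbleached vehicle libraries, and just inside, rods with 3 genes summed to 2562 and 2024 CPM. With a line at 2 genes the counts became 6, 3, 394 and 126 rods from rolipram to unbleached vehicle, and with a line at 4 genes 0, 0, 172 and 39. The tail in both drug libraries ended at 3 genes.

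The lone interferon rod of each drug library was unlike the others. The rolipram cell had 6419 UMIs and the BC11-38 cell 6575, several times the rod median of its library, and their rod phototransduction genes summed to 15423 and 11407 CPM, against 70145 and 75526 CPM in the other rods of the same libraries. The rolipram cell held 36 UMIs of microglial genes, Cx3cr1, Tyrobp, Cd74 and Lyz2 among them, and the BC11-38 cell held 21 UMIs of the endothelial genes Cldn5 and Pecam1. Both cells also held Xist and Y-linked UMIs together. Whether they were doublets was not tested. No gene comparison was made within the drug libraries, since each had 1 interferon rod.

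In the vehicle libraries the interferon rods looked like rods. The 12 rod markers that the selection did not use (Gnat1, Pde6b, Sag, Nrl and Rom1 among them) summed to 37107 CPM in interferon rods against 43058 CPM in other rods of the bleached vehicle library, and to 44569 against 52248 CPM in the unbleached. Microglial markers were nearly missing: interferon rods of the bleached vehicle library held 3 UMIs with 10 of 12 markers at 0, or 5.90 against 22.1 CPM in other rods, and those of the unbleached held 0 UMIs with all 12 at 0, which allows up to 17.6 CPM, against 13.0 CPM in other rods. Müller glia markers summed to 297 against 302 CPM and to 70.4 against 211 CPM, and cone markers to 150 against 178 CPM and to 76.2 against 154 CPM. The 6 cone genes and 5 Müller glia genes limited by the rod rule are among these markers. Low values of both lists were thus partly set by the selection, in other rods as well, and are a description. Markers of bipolar cells (522 against 627 CPM), amacrine cells (37.4 against 89.1 CPM), ganglion cells (9.84 against 12.1 CPM) and endothelial cells (21.6 against 38.2 CPM) were also lower in bleached interferon rods. Horizontal cell markers were higher there, at 17.7 against 5.90 CPM, from 9 and 19 UMIs, and so were pigment epithelium markers, at 9.84 against 4.35 CPM, from 5 and 14 UMIs. Without bleaching the sums of all of these lists were lower in interferon rods. Those of horizontal cells, endothelial cells, ganglion cells and pigment epithelium rested on 1, 1, 4 and 0 UMIs there, so a lower level is uncertain for them. The part of all these markers in the results below was not tested. Interferon rods were deeper, with medians of 1783 against 1356 UMIs after bleaching and 2357.5 against 1506 UMIs without it, and their median mitochondrial share was 1.75% against 1.61% and 4.01% against 2.00%.

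The selecting genes differed in how much of the signal they carried. Bst2, a membrane protein that tethers budding viruses, averaged 870 CPM in interferon rods and 64.0 CPM in other rods of the bleached vehicle library, and 1238 and 31.7 CPM in the unbleached. Irf7, the transcription factor that amplifies type I interferon production, stood at 791 against 51.3 CPM and at 751 against 23 CPM. Stat2 stood at 649 against 112 CPM and at 422 against 52.0 CPM. These 3 genes and Irgm1, an immunity-related GTPase, were detected most often: Irf7 in 72.5% and 86.7% of bleached and unbleached interferon rods, Stat2 in 69.2% and 70.0%, Bst2 in 65.6% and 75.0%, and Irgm1 in 55.9% and 56.7%.

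The other selecting genes were detected in fewer interferon rods. Gbp7, a guanylate-binding GTPase, stood at 443 against 3.73 CPM and at 223 against 1.25 CPM, and Oasl2, a member of the oligoadenylate synthetase family, at 327 against 3.42 CPM and at 229 against 0.999 CPM. Ddx58, the gene of the cytosolic RNA sensor RIG-I, stood at 394 against 13.0 CPM and at 205 against 4.25 CPM. Parp9, of the ADP-ribosyltransferase family, reached 386 and 370 CPM in interferon rods of the 2 libraries, Rtp4, an interferon-induced chaperone of membrane receptors, 311 and 240 CPM, and Igtp, an immunity-related GTPase, 281 and 217 CPM. In rods as a whole Irf7 stood at 11.1, 11, 152 and 52.7 CPM and Stat2 at 22.6, 30.6, 185 and 67.1 CPM in the rolipram, BC11-38, bleached vehicle and unbleached vehicle libraries.

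Interferon genes outside the selection were also higher in these rods. A union of 132 further interferon genes, summed with no filter on level, made up 10671 CPM of interferon rods and 2305 CPM of other rods in the bleached vehicle library, a ratio of 4.63 (exact conditional Poisson 95% interval 4.47 to 4.79), and 11437 against 1755 CPM in the unbleached, a ratio of 6.52 (6.19 to 6.85). Among rods with Y-linked UMIs alone, a subset taken up below, the ratios were 4.70 and 6.60. Of the 132 genes, 92 had the higher level in interferon rods and 22 in other rods after bleaching, with 18 at 0 in both. Without bleaching 76 were higher in interferon rods and 31 in other rods, with 25 at 0 in both. The 92 genes are 69.7% of the 132 and the 76 genes 57.6%, beside 32.4% and 25.1% of all 20084 genes outside the selection with the higher level in interferon rods.

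A gene that is scarce outside the interferon rods enters a filtered comparison only through them, so list counts are given for genes with at least 50 UMIs in other rods alone. On that footing 16 of 26 interferon genes outside the selection were at least 2-fold higher in interferon rods of the bleached vehicle library and 0 were 2-fold lower, beside a background of 1.3% of 8237 genes higher and 3.81% lower. In the unbleached vehicle library 13 of 22 were higher and 0 lower, beside 3.41% of 8383 genes higher and 13.5% lower. The median log2 ratio of these interferon genes was 1.66 and 1.33, against -0.08 and -0.14 over all genes with that many UMIs. With the filter on the summed UMIs of both cell sets instead, 2.07% of 7912 genes were higher and 2.87% lower after bleaching, and 4.66% of 3970 higher and 6.17% lower without it. Genes of rod phototransduction had 0 of 21 higher in either library. Of them 0 were lower after bleaching and 2 without it, with medians of -0.26 and -0.37. These ratios compare cells of the same library and describe the libraries, not the groups.

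**Figure D2:**
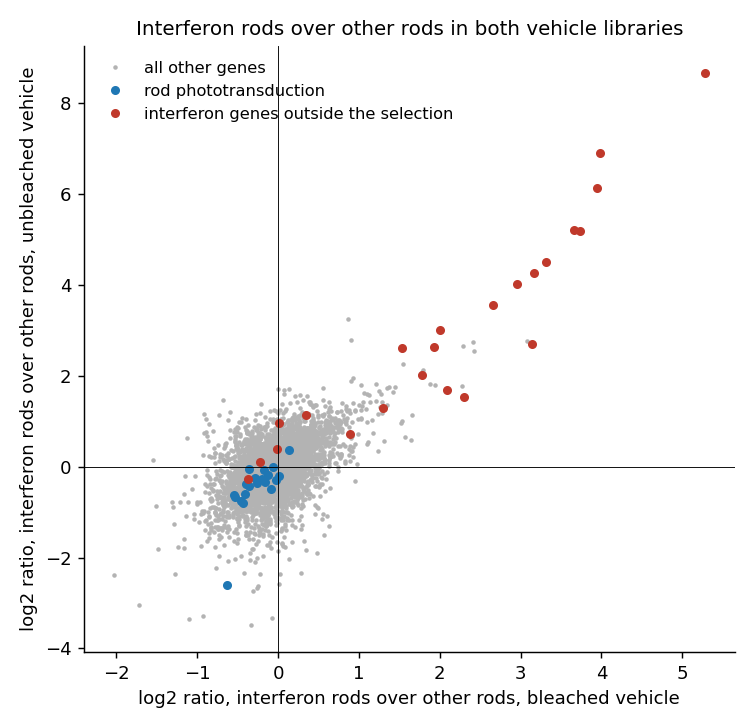
Log2 ratio of CPM, interferon rods over other rods, in the bleached vehicle library (x axis) and in the unbleached vehicle library (y axis), for 3968 genes with enough UMIs in both, some of which entered only through the interferon rods. Interferon genes outside the selection reach the upper right, with Ifit3 farthest out, and of the 20 drawn rod phototransduction genes 17 lie below 0 in both.

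Receptors and kinases lie at the head of the pathway and STAT and IRF transcription factors below them. Ifnar1, a chain of the type I receptor, had 35.4 against 36.3 CPM (ratio 0.975, 0.558 to 1.61) after bleaching and 35.2 against 33.2 CPM (1.06, 0.382 to 2.37) without it. Of the receptors and kinases with enough UMIs in other rods, 0 of 4 were 2-fold higher in either library. Ifnar2, the other chain, rested on few UMIs, 13 in interferon rods and 11 in other rods after bleaching (25.6 against 3.42 CPM, ratio 7.49, 3.10 to 18.5) and 2 against 4 without it. Among STAT and IRF factors 5 of 7 and 3 of 5 were 2-fold higher. Irf9, the partner of Stat2 in the type I complex, had 455 against 157 CPM (2.90, 2.47 to 3.39) and 510 against 82.9 CPM (6.15, 4.80 to 7.81). Irf1, a factor induced strongly by type II interferon, had 248 against 18.3 CPM (13.5, 9.86 to 18.8) and 235 against 6.25 CPM (37.6, 22.2 to 64.6). Its unbleached ratio rested on 25 UMIs in other rods, too few for the list count. Irf2 was also higher, with ratios of 4.28 (3.50 to 5.23) and 3.26 (2.26 to 4.58). So was Irf8, with ratios of 7.68 (5.23 to 11.3) and 11.4 (5.85 to 21.3), the last from 33 UMIs in other rods. Other members of these families lay close to 1. Irf3, which acts upstream of interferon production, had ratios of 0.859 (0.592 to 1.21) and 1.08 (0.596 to 1.80), and Stat3 ratios of 0.994 (0.80 to 1.22) and 1.31 (0.888 to 1.87).

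Among nucleic acid sensors and their adaptors with at least 50 UMIs in other rods, 3 of 6 genes were 2-fold higher in each library. Eif2ak2, Ifih1, Socs1 and Usp18, named below, had fewer UMIs in other rods of both libraries, so their values are a description. Eif2ak2, the kinase PKR that halts translation on double-stranded RNA, had 171 against 10.9 CPM (15.7, 10.5 to 24.0) after bleaching and 282 against 3.75 CPM (75.1, 41.4 to 144) without it. Samhd1, which destroys the nucleotides needed for viral replication, had 409 against 46.3 CPM and 264 against 40.5 CPM. Ifih1, which encodes the RNA sensor MDA5, had 100 against 3.73 CPM after bleaching and 58.7 against 0.75 CPM, from 10 and 3 UMIs, without it. The adaptor Mavs and the kinase Tbk1, which relay sensor signals, had ratios of 1.06 and 1.05 after bleaching and of 0.869 and 0.958 without it. Other sensors were scarce: Dhx58, which encodes the RNA sensor LGP2, had 0 against 2 UMIs after bleaching and 1 against 1 UMIs without it, and Cgas, Tlr7 and Aim2 had 0 UMIs in interferon rods of both libraries. The levels of the feedback inhibitor Socs1 were 181 against 10.9 CPM and 99.7 against 2.25 CPM, and those of Usp18, a protease that removes ISG15 and damps the receptor, 175 against 9.63 CPM and 158 against 3.50 CPM.

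**Figure D3:**
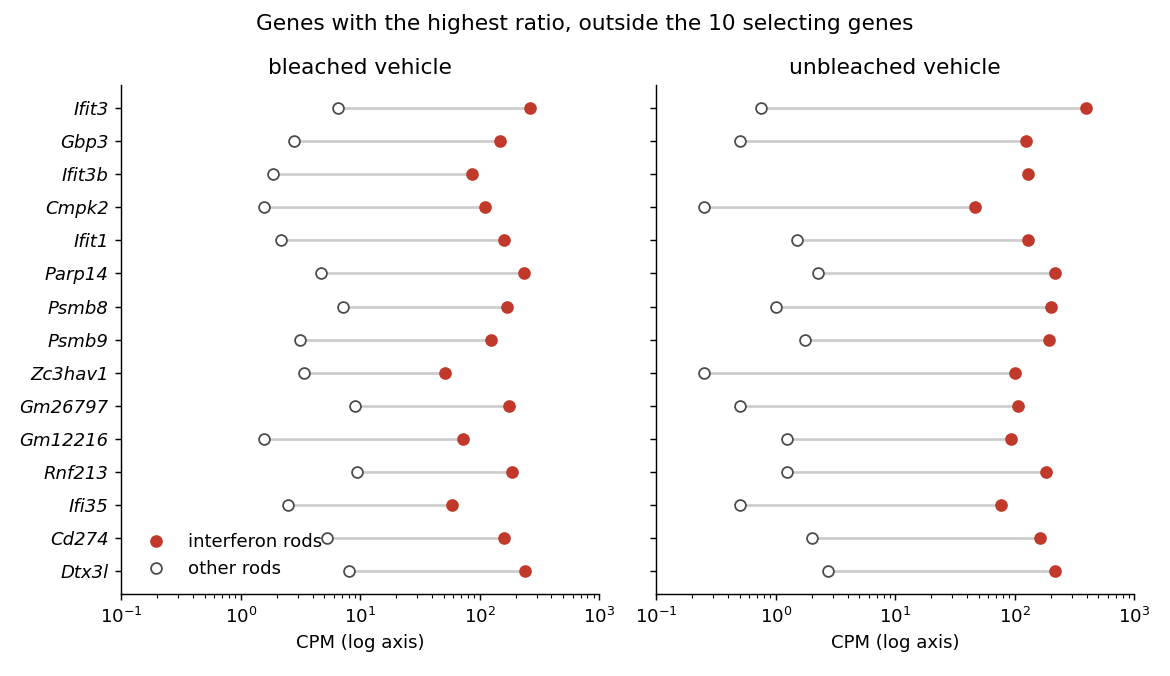
CPM in interferon rods and in other rods of the same vehicle library for the 15 genes outside the selection ranked highest by mean log2 ratio, on a log axis. Ifit3 stands at 264 against 6.52 CPM after bleaching and at 399 against 0.75 CPM without it; Ifit3b has no point for other rods of the unbleached vehicle library, where it had 0 UMIs.

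MHC class I presentation genes, whose products show peptides to T cells, were higher in both libraries. H2-D1, a class I heavy chain, had 850 against 109 CPM (7.80, 6.76 to 9.0) and 1126 against 69.2 CPM (16.3, 13.5 to 19.6). Tapbp, which loads peptides onto class I molecules, had 671 against 74.5 CPM and 745 against 38.5 CPM, and Tap1, a chain of the peptide transporter, 175 against 10.9 CPM (16.1, 10.8 to 24.6) and 299 against 2.25 CPM (133, 64.9 to 307). The immunoproteasome subunits Psmb8, Psmb9 and Psmb10 had 169, 124 and 216 CPM in bleached interferon rods against 7.14, 3.11 and 21.4 CPM in other rods. B2m, the light chain, had 70.9 against 14 CPM (5.07, 3.18 to 8.04) and 182 against 4.50 CPM (40.4, 21.9 to 76.8). Of genes of the list with at least 50 UMIs in other rods, 4 of 6 were 2-fold higher after bleaching and 4 of 5 without it. Tap1, Psmb8, Psmb9 and B2m had fewer UMIs in other rods of both libraries. They are not in these counts, and their values are a description. The endoplasmic reticulum chaperones of the list stood closer to 1, Calr with ratios of 1.28 and 2.19 and Pdia3 with 1.01 and 1.94. Reads of H2-D1 and H2-K1 may be shared with other class I genes, so their split is uncertain.

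Of antiviral effectors with at least 50 UMIs in other rods, 1 of 2 was 2-fold higher in each library, and of the interferon-induced GTPases 0 had that many UMIs. The highest-ranked genes, named first, had few UMIs in other rods and were ranked through the interferon rods, so their values are a description. Ifit1, which binds viral RNA caps, had 161 against 2.17 CPM (74.2, 34.4 to 190) and 129 against 1.5 CPM (86.1, 33.8 to 260). Ifit3, its partner, had 264 against 6.52 CPM (40.4, 25.4 to 67.5) and 399 against 0.75 CPM (532, 175 to 2644), the last from 3 UMIs in other rods. Ifit3b had 86.6 against 1.86 CPM after bleaching and 22 against 0 UMIs without it. Ifit3 and Ifit3b are near-identical copies between which reads may be split, so each of their levels is uncertain. Gbp3, a guanylate-binding GTPase, had 150 against 2.80 CPM and 123 against 0.50 CPM, and Irgm2 86.6 against 5.28 CPM and 76.2 against 1.25 CPM. Cmpk2, a mitochondrial nucleotide kinase, had 110 against 1.55 CPM after bleaching and 8 against 1 UMIs without it, and Ifi35, an interferon-induced leucine zipper protein, 59.0 against 2.48 CPM and 13 against 2 UMIs. Zc3hav1, which destroys viral RNA, had 26 against 11 UMIs and 17 against 1 UMIs. The non-coding or poorly described genes of the same rank were Gm26797, at 175 against 9.01 CPM and 106 against 0.50 CPM, and Gm12216, next to Irf1, at 72.8 against 1.55 CPM and 93.8 against 1.25 CPM. Not every effector took part: Rsad2, which makes an antiviral nucleotide, had 2 UMIs in bleached and 0 in unbleached interferon rods, and Ifitm3, which blocks viral entry, had a ratio of 1.29 (0.630 to 2.42) after bleaching and 0 UMIs in unbleached interferon rods. The chemokines Cxcl10 and Ccl2, which draw immune cells, had 0 UMIs in all 307 interferon rods of the vehicle libraries, and 5 and 8 UMIs in other rods after bleaching. Counts of 0 allow up to 5.90 CPM in bleached and 17.6 CPM in unbleached interferon rods, so they do not show a level below that of other rods.

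Of genes of the ISG15 and ubiquitin pathway with at least 50 UMIs in other rods, 1 of 2 was 2-fold higher in each library, and of PARP and PML body genes 2 of 3 after bleaching and 1 of 2 without it. Several genes of these lists named here had fewer UMIs in other rods. Parp14 had 236 against 4.66 CPM (50.7, 29.5 to 93.4) and 217 against 2.25 CPM (96.5, 45.7 to 227). Dtx3l, a ubiquitin ligase that pairs with Parp9, had 242 against 8.08 CPM and 217 against 2.75 CPM. Rnf213, a large ubiquitin ligase, had 187 against 9.32 CPM and 182 against 1.25 CPM, and Isg15 itself 55.1 against 1.86 CPM and 64.5 against 1.25 CPM. Cd274, the immune checkpoint ligand PD-L1, had 161 against 5.28 CPM (30.6, 18 to 55) and 164 against 2.00 CPM (82.2, 36.5 to 209).

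Several of the genes lie side by side in the genome (GRCm38, GENCODE coordinates). Of 130 placed genes, made up of the selecting genes and those at least 2-fold higher in both libraries, 29 fell into 11 groups with gaps under 100000 bases. How many of 130 other genes would fall into such groups was not counted, so these numbers are a description. Psmb9, Tap1, Psmb8 and Tap2 lie within chr17:34181987-34216321, in the MHC, and BC051226, Daxx, Tapbp and H2-K1 within chr17:33908044-34000347. Parp14, Dtx3l and Parp9 lie within chr16:35832874-35972605, where the annotated ends of Dtx3l and Parp9 overlap, Ifit3, Ifit3b and Ifit1 within chr19:34583531-34650009, and Gbp7 and Gbp3 within chr3:142530342-142573209. Whether the counting used strand is not given in the sources used here, so reads of overlapping or antisense neighbours cannot be told apart.

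In the vehicle libraries interferon transcripts outside the selection were higher at each step in the number of selecting genes a rod held. In the bleached vehicle library the union of 132 genes summed to 2011, 2679, 3853, 5951, 8115 and 16782 CPM in rods with 0, 1, 2, 3, 4 or 5, and 6 to 10 selecting genes. In the unbleached vehicle library it summed to 1609, 2107, 3501, 5749, 8489 and 17456 CPM over the same steps. MHC class I genes ran from 591 to 5569 CPM and from 551 to 6845 CPM between the end steps. Median depth moved with the steps, from 1322.5 to 2104 UMIs after bleaching and from 1450.5 to 3560 UMIs without it, and its part in the gradient was not tested. In the drug libraries, where few rods held any, the union summed to 1311, 1643 and 2338 CPM in the 2430, 170 and 5 rolipram rods with 0, 1 and 2 selecting genes, and to 1128, 1126 and 1050 CPM in the 2126, 145 and 2 BC11-38 rods. In the vehicle libraries the rods with 2 selecting genes, just outside the line, thus lay between the rods with none and the interferon rods.

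**Figure D4:**
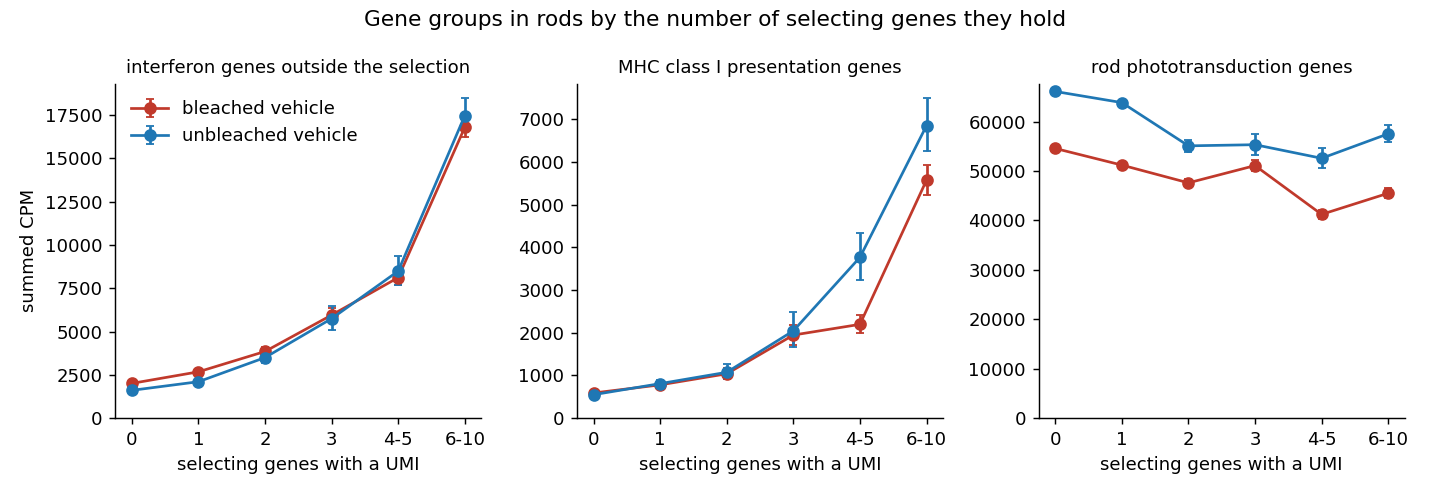
Summed CPM of interferon genes outside the selection, of MHC class I genes and of rod phototransduction genes in rods grouped by how many selecting genes they held, for the bleached and unbleached vehicle libraries, with exact 95% counting intervals. The interferon sums climb to 16782 CPM and 17456 CPM in rods with 6 to 10 genes.

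Rod genes were a little lower in interferon rods, by less than the 2-fold line for nearly all of them. Rod phototransduction genes summed to 45532 against 53257 CPM after bleaching and to 55437 against 65340 CPM without it. Gnat1, the rod transducin subunit, had ratios of 0.818 (0.770 to 0.868) and 0.844 (0.773 to 0.920). Nrl, the factor that sets rod identity, had 667 against 957 CPM (0.697, 0.621 to 0.780) and 727 against 1264 CPM (0.575, 0.477 to 0.687), and its partner Crx ratios of 0.755 and 0.598. Rpgrip1, which anchors the photoreceptor cilium, had ratios of 0.600 (0.536 to 0.670) and 0.388 (0.307 to 0.485). Neurod1, a factor of photoreceptor survival, and Prom1, an outer segment membrane protein, ran the other way, with ratios of 1.13 and 1.25 after bleaching and 1.28 and 1.46 without it. CPM is a share of the cells' own UMIs, so these ratios do not give amounts per cell.

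Most stress genes of photoreceptors did not follow the interferon genes in the bleached vehicle library. Edn2, an endothelin made by injured photoreceptors, had 150 against 180 CPM (0.830, 0.645 to 1.06) in bleached interferon rods and other rods, and 111 against 63.2 CPM (1.76, 1.04 to 2.81) in the unbleached. Fgf2, a survival factor, had 92.5 against 50.6 CPM (1.83, 1.29 to 2.54) and 199 against 20.7 CPM (9.62, 6.25 to 14.5). Gadd45g of the same list was 2-fold higher in both libraries, at 195 against 56.2 CPM (3.47, 2.68 to 4.45) and 123 against 28.0 CPM (4.40, 2.62 to 7.06). Mt1, a metallothionein, was lower in both, at 319 against 531 CPM and 64.5 against 183 CPM. Of 10 stress genes with enough UMIs in other rods 1 was 2-fold higher and 0 lower after bleaching, beside 1.3% and 3.81% of all genes, and 5 were higher and 3 lower without it, beside 3.41% and 13.5%. Whether that difference goes beyond library differences was not tested. Tnfaip3, an inhibitor of NF-kB signalling, had ratios of 0.585 and 0.212. Ripk1, a kinase of necroptosis, had 118 against 34.2 CPM (3.46, 2.48 to 4.78) and 64.5 against 15 CPM (4.30, 2.04 to 8.26), and Zbp1, a sensor that engages it, 17 against 3 UMIs and 10 against 0 UMIs.

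Of 8601 genes with 50 UMIs over the rods of both vehicle libraries together and 10 seen or expected in their interferon rods, 120, or 1.4%, were at least 2-fold higher in both libraries. Of the 120, 74 lay outside the union of 132 interferon genes, Socs1 of the feedback list among them. Impg2, a component of the matrix between photoreceptors and pigment epithelium, had 1303 against 632 CPM (2.06, 1.89 to 2.25) and 1173 against 467 CPM (2.51, 2.16 to 2.91). Hap1, a partner of huntingtin, had 508 against 59.9 CPM and a ratio of 8.47 after bleaching and 6.87 without it. Nampt, an enzyme of NAD synthesis, had ratios of 5.40 and 5.87, and Nme2, a nucleoside diphosphate kinase, 2.89 and 5.92. In the other direction 76 genes were 2-fold lower in both, or 0.884%. Bhlhe41, a transcriptional repressor of the clock, had 76.8 against 172 CPM and ratios of 0.447 and 0.331. These genes were picked after their values were seen. Among the genes ranked lowest by rule, E130310I04Rik, an annotated antisense transcript, had ratios of 0.241 (0.103 to 0.484) and 0.189, from 8 and 4 UMIs in interferon rods. The others so ranked were Fnip2, Zscan29, 2810030D12Rik, Plpp2, Mex3c and Plekha6, with 1 UMI each in unbleached interferon rods, and 3010001F23Rik, Grhpr and Glb1l2, with 2 each.

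Interferon rods of the bleached vehicle library and those of the unbleached were also set against each other. Of the 43 interferon genes counted, 2 were at least 2-fold higher after bleaching and 3 lower, beside backgrounds of 3.73% higher and 0.38% lower over 2896 genes, and the median log2 ratio was 0.08, against 0.06 over all genes, and turned to -0.0015 under TMM scaling. The bleached set held 508101 UMIs against 170499, so a gene could pass this filter through the bleached set alone. Among genes with at least 50 UMIs in unbleached interferon rods, 0 of 7 interferon genes were 2-fold higher and 1 lower. Over all 525 such genes 0 were higher and 5 lower. The medians on that footing were -0.40 for interferon genes and -0.15 for all. Levels were lower after bleaching for B2m, at 70.9 against 182 CPM (0.390, 0.234 to 0.651), and for the chaperones Hspa8, at 488 against 1138 CPM (0.429, 0.354 to 0.520), Hspa5, at 191 against 545 CPM (0.350, 0.261 to 0.470), and Calr, at 321 against 698 CPM (0.460, 0.361 to 0.587). Hspa8 and Hspa5 were lower after bleaching in other rods as well, with ratios of 0.578 and 0.619, whereas B2m had a ratio of 3.11 there. Zfp36, which degrades inflammatory messages, was higher after bleaching, at 100 against 11.7 CPM (8.56, 2.25 to 72.6) in interferon rods, from 51 and 2 UMIs, and with a ratio of 3.17 in other rods. Mt1 had 319 against 64.5 CPM (4.94, 2.69 to 10.1). With 60 unbleached interferon rods, few UMIs stood behind each gene.

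Rods below the line also differed between libraries in interferon transcripts. With no filter on level, the union of 132 genes summed to 1338, 1127, 2305 and 1755 CPM in other rods of the rolipram, BC11-38, bleached vehicle and unbleached vehicle libraries. The ratio was 1.31 (1.27 to 1.36) for bleached over unbleached vehicle, 0.581 (0.560 to 0.602) for rolipram over bleached vehicle and 0.489 (0.471 to 0.508) for BC11-38 over bleached vehicle. In other rods with Y-linked but no Xist UMIs the sums were 1363, 1152, 2237 and 1974 CPM.

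Single genes were then counted among those with at least 50 UMIs in the library where the union was lower, a filter chosen after seeing the data. In bleached over unbleached vehicle 0 of 22 interferon genes were 2-fold higher and 0 lower, beside 0.596% of all genes higher and 0.131% lower, with a median log2 ratio of 0.36 against 0.08 over all genes. In rolipram over bleached vehicle 8 of 21 were 2-fold lower and 0 higher, beside 1.35% of all genes lower and 0.602% higher, with a median of -0.54 against -0.09. In BC11-38 over bleached vehicle 4 of 18 were 2-fold lower and 0 higher, beside 2.27% lower and 1.29% higher, with a median of -0.52 against -0.13. The last pair of comparisons share the bleached vehicle library. Müller glia markers in these rods moved the same way in all of the comparisons above, with sums of 264, 253, 302 and 211 CPM from rolipram to unbleached vehicle. Their sum was lowest in the unbleached vehicle library, whereas that of the interferon union was lowest in the BC11-38 library. The part of Müller glia markers in the differences was not tested. Over all rods H2-D1 had 30.3, 14.9, 210 and 112 CPM in the rolipram, BC11-38, bleached vehicle and unbleached vehicle libraries, while Tap1, Psmb9 and Usp18 had 0 UMIs in rods of both drug libraries.

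Each pool held 2 mice, and sex-linked transcripts split the rods of some pools. In the unbleached vehicle library interferon rods were more frequent among rods with Y-linked UMIs. There 24 of 575 rods with Y-linked but no Xist UMIs were interferon rods, or 4.17% (2.69% to 6.15%), against 2 of 1003 rods with Xist but no Y-linked UMIs, or 0.199% (0.0242% to 0.718%), and 31 of 660 rods with neither, or 4.70%. After thinning to 2000 UMIs the shares were 5.77% (12 of 208) and 0.329% (1 of 304). The bleached vehicle library had 1 rod with Xist but no Y-linked UMIs, so there 120 of 1084 rods with Y-linked UMIs were interferon rods, or 11.1% (9.26% to 13.1%), and no such contrast exists. In the drug libraries the shares were 0 of 588 and 0 of 576 rods with Y-linked UMIs, which allows up to 0.510% and 0.521%, and 0 of 1070 and 0 of 994 with Xist. Among rods with Y-linked UMIs alone the bleached vehicle library again stood above the unbleached, and both above the drug libraries. A mouse and its sex cannot be told apart in a pool of 2 mice, and the unbleached share of 2.60% mixes rods of both kinds.

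The other classes of the unbleached vehicle library were divided in the same way. The 10 selecting genes summed to 465 CPM (427 to 507) in rods with Y-linked UMIs and 91.9 CPM (78.2 to 107) in rods with Xist UMIs. In cells with Müller markers they summed to 223 CPM (209 to 239) and 338 CPM (316 to 361), the opposite order for this sum, while the 3-gene share at 2000 UMIs was 1.34% and 0.897%, from 3 and 2 cells. In amacrine-marked cells they summed to 31.4 and 40.0 CPM, in bipolar-marked cells to 25.5 and 30.6 CPM, and in cone-marked cells to 27.9 and 30.8 CPM. Interferon genes outside the selection summed to 2632 CPM (2538 to 2727) in rods with Y-linked UMIs and 1515 CPM (1458 to 1574) in rods with Xist UMIs. The sums lay closer together in the other classes, at 4713 against 4401 CPM in Müller-marked, 2037 against 1936 CPM in amacrine-marked and 1794 against 1697 CPM in bipolar-marked cells. In cone-marked cells they were nearly equal, at 1682 against 1670 CPM. Intervals are not given for these other classes, so the order within them is a description. Whether the split differs between classes was not tested.

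**Figure D5:**
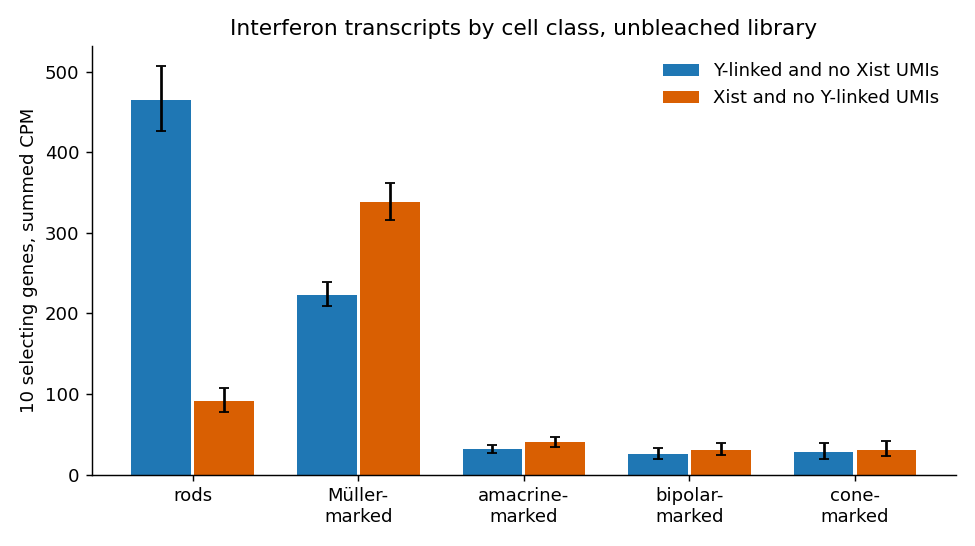
Summed CPM of the 10 selecting genes in the unbleached vehicle library, by cell class, for cells with Y-linked but no Xist UMIs and for cells with Xist but no Y-linked UMIs; bars are exact 95% Poisson counting intervals. Rods stand at 465 against 91.9 CPM and Müller-marked cells at 223 against 338 CPM.

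Set beside other retinal classes by the same 3-gene line at 2000 UMIs, rods had the highest share in the bleached vehicle library. The share in rods was 0%, 0%, 16.4% and 4.62% from rolipram to unbleached vehicle, and in Müller-marked cells 3.94%, 0.341%, 3.93% and 2.01%. Amacrine-marked, bipolar-marked and cone-marked cells had at most 0.644% in any library at that depth. Their selecting genes summed to 73.9, 78.7 and 80.1 CPM in the bleached vehicle library and to 35.6, 27.4 and 34.9 CPM in the unbleached. Whether their share is a background was not tested. Cells that met no class rule had 4.32%, 1.83%, 6.03% (4.28% to 8.21%) and 3.37% (1.98% to 5.35%), so in the unbleached vehicle library their interval overlapped that of rods. Summed levels of the selecting genes in the bleached vehicle library were 929 CPM (899 to 961) in rods, 412 CPM (403 to 421) in Müller-marked cells, 469 CPM (450 to 488) in cells of no class and 80.1 CPM or less in amacrine-marked, bipolar-marked and cone-marked cells. Without bleaching they were 301 CPM (285 to 318) in rods, 304 CPM (292 to 317) in Müller-marked cells and 222 CPM (209 to 235) in cells of no class, with overlapping intervals for rods and Müller-marked cells. In the rolipram library rods had 51.7 CPM and Müller-marked cells 359 CPM, against 929 and 412 CPM in the bleached vehicle library. Interferon genes outside the selection put the classes in another order. In the bleached vehicle library they summed to 3446 CPM in rods, 5339 CPM in Müller-marked cells and 6869 CPM in cells of no class. Amacrine-marked, bipolar-marked and cone-marked cells had 2300 CPM or less there. In the unbleached vehicle library rods had 2151 CPM, Müller-marked cells 4814 CPM and cells of no class 4161 CPM. Shares by class rest on marker rules and on 1 library each, and differences between libraries were not tested.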

How the data were processed

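Retinal cells of 4 libraries were measured by 10x single-cell RNA-seq (v3 chemistry, NovaSeq), per the labels' protocols. Cell Ranger 6.0.1, Seurat 3.2.2 and mm10 are named per the submitters' processing notes, and strand use is not given in the sources used here. A further drug group of the study was not analysed here. The authors deposited natural log values of 1 plus UMIs per 10000 UMIs of a cell, per the file headers; whole UMIs were recovered for 100% of values (tolerance 0.001), 140410160 altogether. Counts were assumed when the design was written, and ratios use the recovered ones. Libraries held 31544696, 28983626, 44386442 and 35495396 UMIs in 7894, 6143, 6809 and 5697 cells (rolipram, BC11-38, bleached vehicle, unbleached vehicle). Of all barcodes 92 occurred in 2 libraries, 2 of them on interferon rods. Doublets were not called, and rods over 3 times the median depth were left out as an alternative.

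UMIs were summed per library and cell set and scaled to CPM. Ratios have exact conditional Poisson 95% intervals, shares exact Clopper-Pearson intervals, and a count of 0 is bounded by 3 counts. All cover counting error only, since each group is 1 library. Genes needed 50 UMIs over the pair of cell sets and 10 seen or expected in interferon rods, and were called at 2-fold; for calls in both vehicle libraries these UMIs were pooled over them, and some counts read the 50 UMIs in 1 cell set alone, as stated there. For log2 ratios 0.5 UMIs, in proportion to the totals, were added. Genes named by rank were the 15 highest and 10 lowest by mean log2 ratio that lay the same way in both vehicle libraries, and the 8 highest and 8 lowest between interferon rods of these libraries; list genes could also be named. Selecting genes, Xist, Tsix, Y-linked and mitochondrially encoded genes were left out of ranks. The interferon rods and the gene lists were chosen with earlier results of these data known. Scripts used Python 3.11.15, numpy 2.4.6, pandas 2.3.3, scipy 1.17.1 and matplotlib 3.10.9, and were tested on simulated data. Alternatives were other lines for the selection, thinning, other filters, scaling and priors, and subsets of rods. Values of some genes are not reported here.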

Additional observations from a re-analysis of the deposited data

Results flagged for a closer look

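Jund, a subunit of the AP-1 transcription factor, lay on opposite sides of 1 in the vehicle libraries, with counting intervals that exclude 1. It had 545 against 633 CPM in interferon rods and other rods of the bleached vehicle library, a ratio of 0.861 (0.757 to 0.977), and 604 against 478 CPM in the unbleached, a ratio of 1.26 (1.03 to 1.54). The difference between the ratios was not tested.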

How the results depend on the processing

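No paired analysis was possible because each group had 1 library. For the same reason no replicate could be left out. No called result reversed, and the cause of the differences below was not tested. From rolipram to unbleached vehicle, shares of interferon rods were 0.230%, 0.132%, 16.7% and 5.45% with at least 2 selecting genes, 0%, 0%, 7.30% and 1.69% with at least 4, 0%, 0%, 16.4% and 4.62% at 2000 UMIs, 0%, 0%, 10.1% and 2.41% without deep rods, and 0.0438%, 0%, 9.12% and 2.06% with a rod sum of at least 60. Chosen after seeing the data, thinning to 1000 UMIs gave 0%, 0%, 7.90% and 1.92%, and leaving out rods with Xist UMIs 0%, 0%, 10.5% and 4.45%. Rods with Y-linked UMIs gave 14.6% at 2000 UMIs in the bleached vehicle library.

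For interferon rods over other rods, 164 genes higher and 227 lower after bleaching became 1078 and 739 with no minimum and 51 and 22 at 200 UMIs; the interferon median of 3.15 became 1.41 at 200 UMIs, and the phototransduction median of -0.26 became -0.38 with other rods weighted to the same depth. Without bleaching 185 higher and 245 lower became 1197 and 1155 with no minimum, 115 and 83 in rods with Y-linked UMIs, 85 higher at 200 UMIs and 143 lower with weighting; the interferon median of 2.64 became 4.32, 1.97 and 1.53 with no minimum, with Y-linked UMIs and at 200 UMIs. The medians of 3.15 and 2.64 include genes that passed the filter only through the interferon rods, so they are a description. Among genes with at least 50 UMIs in other rods alone the medians were 1.66 and 1.33. The filter-free ratio of 4.63 after bleaching became 4.85 with weighting, 5.08 with at least 4 genes and 4.80 without deep rods, and that of 6.52 without bleaching became 7.63 with at least 4 genes. Between interferon rods of the vehicle libraries 108 higher and 11 lower became 71 and 21 under TMM, 1 and 3 at 200 UMIs and 60 and 21 with Y-linked UMIs; the interferon median of 0.08 became -0.0015, -0.16 and -0.31 in that order, so its sign depends on the setting.

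In other rods the settings were chosen after seeing the data. Bleached over unbleached, 159 higher and 20 lower became 99 and 34 under TMM, 37 and 2 at 200 UMIs and 99 and 12 with Y-linked UMIs. Rolipram over bleached vehicle, 65 higher and 261 lower became 18 and 106 at 200 UMIs and 24 higher with Y-linked UMIs. BC11-38 over bleached vehicle, 119 higher and 478 lower became 193 and 313 under TMM, 50 and 186 at 200 UMIs and 58 higher with Y-linked UMIs.

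In the unbleached vehicle library 60 interferon rods hold 170499 UMIs, so a gene at 17.6 CPM is seen at 3 UMIs. The interval of a ratio holds no variation between mice, dissociations or cells.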
